A study of Mus musculus with 6 samples.

Results

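Transcripts of 8 genes were followed in bulk RNA sequencing of CT26 tumors. They are Xcr1, Clec9a, Batf3, Wdfy4, Flt3, Zbtb46 and Itgax, which mark or build the type 1 conventional dendritic cell (cDC1), and Xcl1, the chemokine that draws this cell. They were taken by gene symbol, and all 8 were found among the 23122 genes of the deposited count table. One group of 3 tumors came from mice given TP-18, named in the series title as a dual antagonist of the prostaglandin E2 receptors EP2 and EP4, at 50 mg/kg by mouth once a day for 3 weeks, and the other group of 3 came from mice given vehicle over the same time. All animals were female BALB/c mice aged 6 to 8 weeks, the strain from which CT26 derives, and each tumor grew under the skin of the flank from 500000 injected cells of CT26, a single murine colorectal carcinoma line, before randomization at 100 to 200 mm3.

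Cross-presentation is the loading of peptides from engulfed material, such as dead tumor cells, onto MHC class I, through which a dendritic cell can activate CD8 T cells against antigens it does not make itself. The cDC1 is specialized for it and depends on the transcription factors IRF8 and BATF3. Activated NK cells and CD8 T cells secrete XCL1, and its receptor XCR1 is carried nearly exclusively by cDC1, so that the pair brings these cells together, and in mouse tumors cDC1 can be recruited by NK cells in this way.

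Total counts per library ran from 34813482 to 36489081. The unit of level is CPM, made from counts with edgeR's TMM library factors, and, where genes are compared with each other, as the authors' FPKM, which is also divided by gene length. A gene is said to have risen or fallen where the adjusted p of edgeR's quasi-likelihood test over all 14189 tested genes was under 0.05. The labels do not say whether each tumor came from its own mouse, so the p-values measure the spread between these samples, which may be partly technical. Epithelial markers of the labelled carcinoma line differed in level from gene to gene. Of 4 tested genes in a list of tumor cell markers, 0 rose and 0 fell. These were Krt18, Cdh1, Vim and Mki67, with adjusted p-values of 0.0649, 0.0647, 0.0923 and 0.778. Krt8, Epcam and Cldn4 were too scarce to test. Krt8 had 6 to 7 counts in TP-18 tumors and 8 to 23 in vehicle tumors, Epcam 7 to 24 and 0 to 2, Cldn4 0 to 4 and 0, Krt18 156 to 274 and 300 to 416, and Cdh1 131 to 195 and 37 to 77, while Vim, a mesenchymal filament gene, averaged 5985 ± 655 CPM in TP-18 tumors and 7644 ± 437 CPM in vehicle tumors (SD, n = 3 each). In whole tumors, more cells of a type and more RNA per cell cannot be told apart.

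The genomic starts of the ligand gene, the receptor gene and the integrin gene are shown because the first pair rose together while the third gene did not pass the test. These are the 250 bases before the RefSeq transcript start in GRCm38.p6, read 5′ to 3′ on the strand of the gene, with capitals marking any match to the motifs searched.
Xcl1 (chr1:164935523-164935772, minus strand): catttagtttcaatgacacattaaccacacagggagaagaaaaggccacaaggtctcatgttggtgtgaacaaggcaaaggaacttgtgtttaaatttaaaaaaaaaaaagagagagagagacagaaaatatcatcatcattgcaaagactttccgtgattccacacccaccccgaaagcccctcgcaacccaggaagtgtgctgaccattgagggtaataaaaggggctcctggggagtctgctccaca
Xcr1 (chr9:123862030-123862279, minus strand): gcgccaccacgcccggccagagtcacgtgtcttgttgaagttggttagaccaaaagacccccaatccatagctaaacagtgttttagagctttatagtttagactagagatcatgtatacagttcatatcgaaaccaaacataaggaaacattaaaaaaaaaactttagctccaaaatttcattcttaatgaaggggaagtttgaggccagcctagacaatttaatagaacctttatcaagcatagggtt
Itgax (chr7:128129300-128129549, plus strand): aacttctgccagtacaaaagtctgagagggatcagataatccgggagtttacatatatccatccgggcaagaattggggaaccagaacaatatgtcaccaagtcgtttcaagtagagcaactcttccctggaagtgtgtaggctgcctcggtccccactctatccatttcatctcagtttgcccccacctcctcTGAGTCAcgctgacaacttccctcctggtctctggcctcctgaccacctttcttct
The 3 motifs searched on both strands were TGANTCA, the AP-1 site that BATF and JUN factors bind as a pair, the interferon-stimulated response element of IRF factors, here GAAA and again GAAA after a gap of 2 bases, and GAGGAAGT, a site of the myeloid factor PU.1. Among 27025 promoters of the same length, 6.87% held the first, 3.04% the second and 2.44% the third. All 8 genes had a promoter entry, and the only matches were TGANTCA in Itgax, 56 to 50 bases before the start, and in Zbtb46, 61 to 55 bases before the RefSeq start used. That Zbtb46 window, at chr2:181424389-181424638, lies inside the gene as annotated by GENCODE, as do the windows of Batf3 and Wdfy4. All 250 bases of the Clec9a window lie in annotated exons. Xcl1 and Xcr1 held none of the 3 motifs in this window, which says only that these letters are not there.

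Transcripts of cDC1 and of their chemokine were several times more abundant in TP-18 tumors. Of the 8 genes, 6 rose, between 3.14-fold for Wdfy4 and 10.9-fold for Xcr1 by the fitted change, and 0 fell. Among all tested genes 7.09% rose and 5.26% fell, 12.4% in all. The median log2 change over the 8 genes was 2.40, against -0.01 over all tested genes. The genes that rose were Xcl1, Xcr1, Clec9a, Wdfy4, Batf3 and Flt3, and in each of them all TP-18 tumors lay above all vehicle tumors, as was so for 18.0% of tested genes (35.8% without overlap in either direction). Xcl1, Xcr1 and Clec9a had a log2 change of at least 3, which 0.479% of tested genes reached. Zbtb46 and Itgax did not pass the test and overlapped between groups. Both are expressed more widely than cDC1, but so are Wdfy4, Batf3 and Flt3, which rose. All 8 passed the filter on low counts, but Xcl1, Xcr1, Clec9a and Batf3 had fewer than 10 counts in 2 or more vehicle tumors and passed through their TP-18 counts, so that the shares of all genes given here are no test of them.

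**Figure D1:**
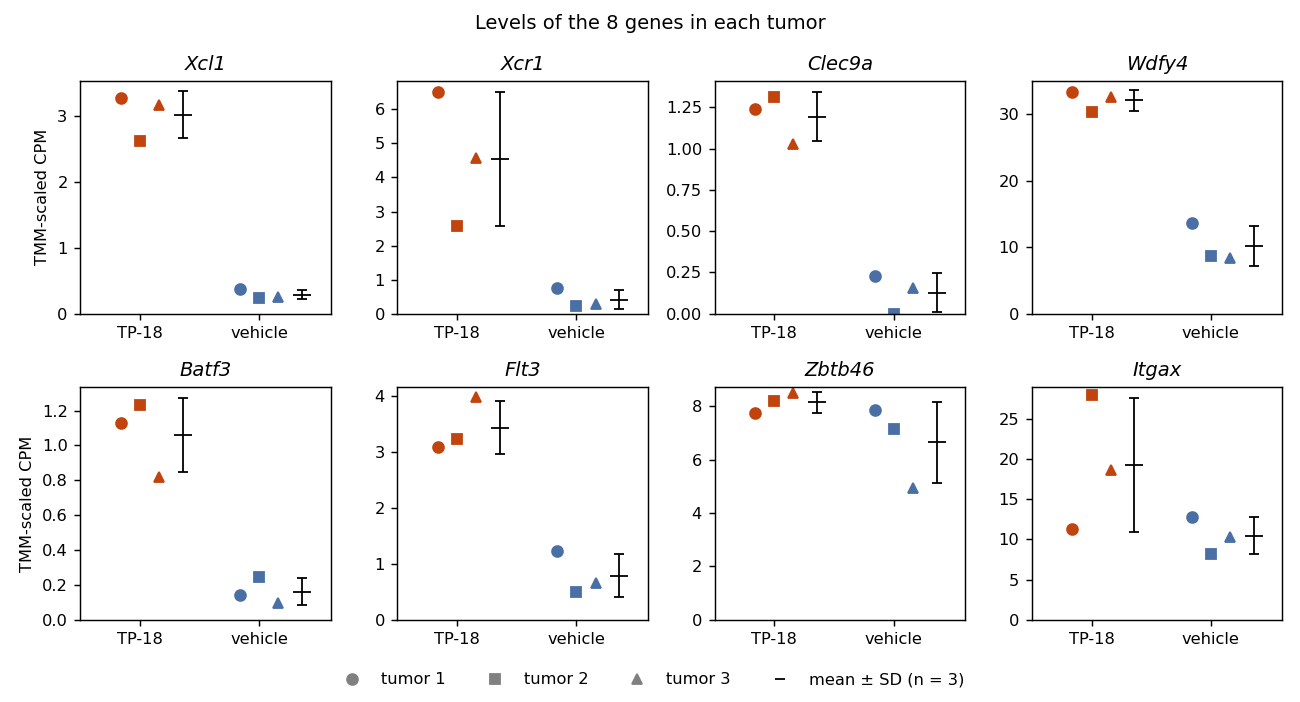
TMM-scaled CPM of the 8 genes (vertical axes, each from 0) in 3 TP-18 tumors (left) and 3 vehicle tumors (right), 1 symbol per tumor, with mean ± SD beside each group. Xcl1, Xcr1, Clec9a, Wdfy4, Batf3 and Flt3 do not overlap between groups, while Zbtb46 and Itgax do.

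The ligand is taken first. Xcl1 (Entrez 16963, chromosome 1, 164931644 to 164935527, minus strand, GRCm38), whose promoter is shown above, encodes lymphotactin, a C-type chemokine of activated NK and CD8 T cells. It was read 122, 96 and 124 times in TP-18 tumors, against 13, 8 and 8 times in vehicle tumors. These counts correspond to 3.28, 2.63 and 3.18 CPM in TP-18 tumors and 0.37, 0.245 and 0.25 CPM in vehicle tumors. The lowest TP-18 tumor thus had several times the level of the highest vehicle tumor, and spread within either group was small. The log2 change was 3.37 ± 0.33 (SE) with an adjusted p of 0.00182, and it passed with any 1 library left out, at adjusted p-values of 0.00226 to 0.0160. The annotation places an antisense transcript, Gm20743, over its exons, and with no strand setting stated for the counting, reads of these transcripts cannot be told apart.

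XCL1 is made by NK and CD8 T cells, whose markers also rose: of 16 tested, 14 rose and 0 fell, with a median log2 change of 2.11 against -0.01 over all tested genes, and 9 rose without TP-18 3. Their summed level was 316 to 503 CPM in TP-18 tumors and 96.2 to 161 CPM in vehicle tumors. The fitted change of Xcl1 was larger than that of each of these 16 markers, a difference examined only for the ratios below. Ncr1, the NK cell receptor NKp46, averaged 8.69 ± 0.84 CPM in TP-18 tumors and 2.32 ± 0.16 CPM in vehicle tumors (log2 change 1.91 ± 0.18, adjusted p = 0.00182). Klrk1, the activating receptor NKG2D, rose by 2.28 ± 0.19 on the log2 scale and Nkg7, a cytotoxic granule protein, by 1.89 ± 0.18. Cd8a, the coreceptor of cytotoxic T cells, stood at 22.4, 22.4 and 21.3 CPM in TP-18 tumors and 7.57, 2.11 and 2.28 CPM in vehicle tumors, with an adjusted p of 0.0347. That call was lost without TP-18 1 (0.0953), TP-18 2 (0.0899), TP-18 3 (0.101), vehicle 2 (0.0914) or vehicle 3 (0.0574).

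The log2 ratio of Xcl1 to Ncr1 counts, in which library scaling cancels, was -1.45, -1.55 and -1.55 in TP-18 tumors and -2.50, -3.26 and -3.13 in vehicle tumors. The groups did not overlap, and per unit of Ncr1 there was more Xcl1 in every TP-18 tumor, by 1.45 on the log2 scale. The exact two-sided permutation test gave p = 0.10, the smallest that 3 tumors against 3 allow, and 0.25 after adjustment over the 10 ratios examined. Xcl1 to Cd8a did not separate the groups, at -2.77, -3.09 and -2.74 in TP-18 tumors against -4.30, -3.03 and -3.11 in vehicle tumors (difference 0.62, exact permutation p = 0.20). Leaving out vehicle 1, where Cd8a was highest in its group, brought the difference to 0.21.

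The fitted change of the receptor was close to that of its ligand. Xcr1 (Entrez 23832, chromosome 9, 123852315 to 123862029, minus strand), the G protein-coupled receptor through which cDC1 follow XCL1, was read 242, 94 and 178 times in TP-18 tumors and 26, 7 and 9 times in vehicle tumors. Its level was 6.51, 2.57 and 4.56 CPM in TP-18 tumors and 0.740, 0.214 and 0.281 CPM in vehicle tumors. TP-18 1 was highest and TP-18 2 lowest of the treated tumors, and vehicle 1 stood above the other vehicle tumors. The log2 change was 3.44 ± 0.55 with an adjusted p of 0.0104, and the call held with any 1 library left out (0.00432 to 0.0463). The log2 ratio of Xcl1 to Xcr1 was -0.98, 0.03 and -0.52 in TP-18 tumors and -0.97, 0.18 and -0.16 in vehicle tumors, a difference of -0.17 (exact permutation p = 0.70).

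Clec9a (Entrez 232414, chromosome 6, 129408862 to 129424763, plus strand) encodes DNGR-1, a C-type lectin by which cDC1 sense actin filaments exposed on dead cells. TP-18 tumors held 46, 48 and 40 counts and vehicle tumors 8, 0 and 5, or 1.24, 1.31 and 1.03 CPM against 0.228, 0 and 0.156 CPM. Every TP-18 tumor was above every vehicle tumor, but the vehicle values rest on 13 reads in all. The log2 change was 3.17 ± 0.71 with an adjusted p of 0.0287, and the call was lost without TP-18 1 (0.0766), TP-18 2 (0.0798), TP-18 3 (0.0874) or vehicle 3 (0.0550). Exons of Clec1b, a neighboring lectin gene of platelets and myeloid cells, overlap those of Clec9a in the annotation, and Clec1b had 0 to 2 counts in TP-18 tumors and 0 to 2 in vehicle tumors.

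Wdfy4 (Entrez 545030, chromosome 14, 32959547 to 33185508, minus strand), a BEACH-domain protein that mouse cDC1 need to cross-present cell-associated antigen, was the best-covered of the cDC1 genes. Counts were 1243, 1109 and 1269 in TP-18 tumors and 480, 282 and 267 in vehicle tumors, or 33.4, 30.4 and 32.5 CPM against 13.7, 8.64 and 8.34 CPM. The treated tumors lay close together, and vehicle 1 was again the highest of its group. The log2 change of 1.65 ± 0.19 had an adjusted p of 0.00365 and passed with any 1 library left out (0.000544 to 0.0227). The log2 ratio of Xcr1 to Wdfy4 averaged -2.91 ± 0.60 in TP-18 tumors and -4.74 ± 0.53 in vehicle tumors (SD, n = 3 each) without overlap. Its exact permutation p was the smallest possible, 0.10, and 0.25 after adjustment over the 10 ratios. B cells and other myeloid cells also use Wdfy4, and of 3 tested B cell markers 2 rose (1 without TP-18 2 or TP-18 3), with summed levels of 3.15 to 5.58 CPM in TP-18 tumors and 0.437 to 1.28 CPM in vehicle tumors. Ms4a1, which encodes the B cell surface protein CD20, had 2 to 5 counts in TP-18 tumors and 0 to 2 in vehicle tumors.

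Batf3 (Entrez 381319, chromosome 1, 191097847 to 191108945, plus strand), the basic leucine zipper factor that sustains IRF8 in committed cDC1, had 42, 45 and 32 counts in TP-18 tumors and 5, 8 and 3 in vehicle tumors. This made 1.13, 1.23 and 0.820 CPM in TP-18 tumors and 0.142, 0.245 and 0.0937 CPM in vehicle tumors. Unlike the other cDC1 genes it was highest in vehicle 2 among vehicle tumors, and the groups stayed apart. Batf3 rose by 2.70 ± 0.47 on the log2 scale (adjusted p = 0.0130, and 0.0257 to 0.0470 with 1 library left out). The log2 ratio of Batf3 to Xcr1 overlapped between groups, with a difference of -0.83 (exact permutation p = 0.50), as did that of Clec9a to Xcr1, with a difference of 0.28 (p = 0.90 by the same test). Activated T cells can also express Batf3, and T cell genes rose in the same tumors, as given for Cd8a.

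Flt3 (Entrez 14255, chromosome 5, 147330741 to 147400489, minus strand), the receptor kinase for the growth factor of all conventional and plasmacytoid dendritic cells and their progenitors, had 115, 118 and 155 counts in TP-18 tumors and 43, 16 and 21 in vehicle tumors. Its level was 3.09, 3.23 and 3.97 CPM in TP-18 tumors against 1.22, 0.490 and 0.656 CPM in vehicle tumors. No vehicle tumor reached the lowest treated one. The log2 change was 2.11 ± 0.38 (adjusted p = 0.0152), and the call was lost when TP-18 3 (0.0641) or vehicle 2 (0.0552) was left out. Flt3l, which encodes its ligand, averaged 7.66 ± 0.51 CPM in TP-18 tumors and 4.67 ± 2.00 CPM in vehicle tumors, with an adjusted p of 0.143. Without vehicle 1, in which Flt3l was highest among vehicle tumors, its adjusted p was 0.0123.

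Zbtb46 (Entrez 72147, chromosome 2, 181387762 to 181459426, minus strand), a zinc finger factor of committed conventional dendritic cells that endothelium also expresses, did not pass the test. Counts were 288, 299 and 332 in TP-18 tumors and 276, 233 and 158 in vehicle tumors, or 7.74, 8.18 and 8.51 CPM against 7.86, 7.14 and 4.94 CPM. Vehicle 1 lay above TP-18 1, so the groups overlapped. The log2 change was 0.29 ± 0.20 with an adjusted p of 0.361, and it ran from 0.13 to 0.45 with 1 library left out. Set against Zbtb46, Xcr1 separated the groups, with log2 ratios of -0.25, -1.66 and -0.90 in TP-18 tumors and -3.38, -4.96 and -4.06 in vehicle tumors. That difference of 3.20 was the largest of the 10 ratios, and it restates the changes already given for the 2 genes. Its exact permutation p was 0.10, the smallest that the test allows, and 0.25 after adjustment over the 10 ratios.

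Itgax (Entrez 16411, chromosome 7, 128129547 to 128150657, plus strand) encodes the integrin CD11c, which dendritic cells share with tissue macrophages and some NK cells. It was read 420, 1022 and 729 times in TP-18 tumors and 451, 268 and 332 times in vehicle tumors, giving 11.3, 28.0 and 18.7 CPM against 12.8, 8.21 and 10.4 CPM. TP-18 1 lay below vehicle 1, while TP-18 2 was the highest of all tumors. Its log2 change of 0.88 ± 0.34 did not pass (adjusted p = 0.139), and missed the threshold in 5 of 6 fits with 1 library left out. It was 1.15 without TP-18 1 (adjusted p = 0.0456) and 0.52 without TP-18 2 (adjusted p = 0.279). The order of the treated tumors was the reverse of that for Xcr1. The log2 ratio of Xcr1 to Itgax thus ran from -3.44 in TP-18 2 to -0.79 in TP-18 1. These values were still above the -5.16 to -4.09 of vehicle tumors (difference 2.71, exact permutation p = 0.10, or 0.25 after adjustment over the 10 ratios). Neither Zbtb46 to Itgax nor Itgax to Adgre1, the gene of the macrophage marker F4/80, separated the groups, with differences of -0.49 and -0.56 (exact permutation p = 0.40 and 0.30).

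**Figure D2:**
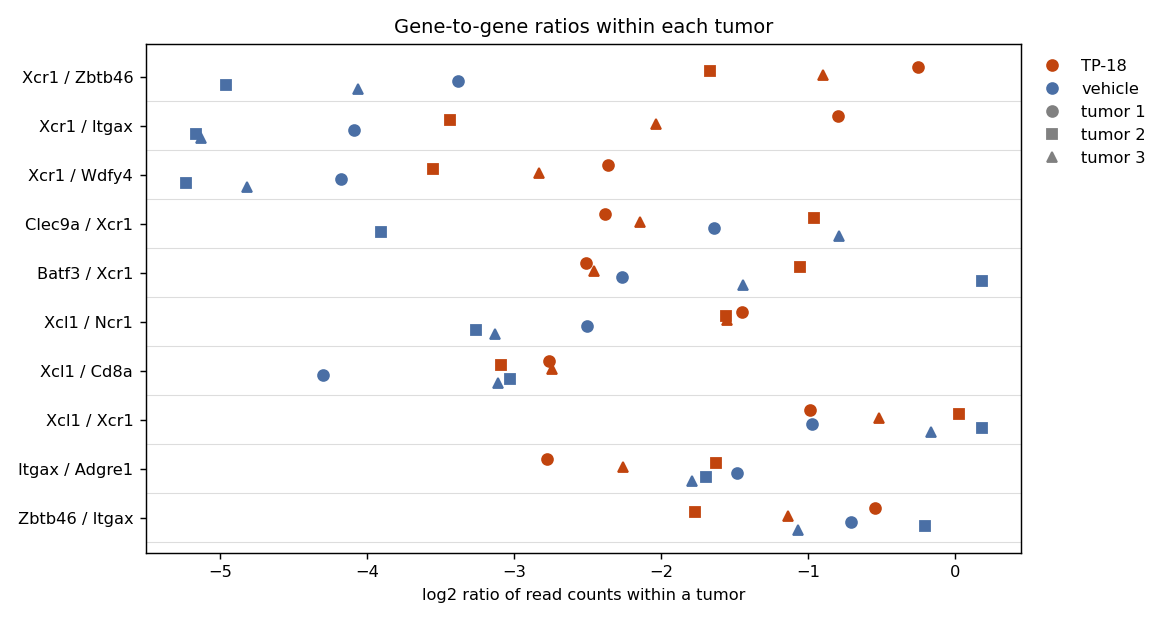
Log2 ratios of read counts between pairs of genes within each tumor (horizontal axis, 0.5 added to each count), TP-18 tumors above vehicle tumors in each row and 1 symbol per tumor number. Xcr1 against Zbtb46, Itgax or Wdfy4 and Xcl1 against Ncr1 separate the groups, and the other 6 ratios overlap.

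Levels per gene length put the genes in a different order in the groups. In TP-18 tumors Xcl1 stood first at 6.15 ± 0.78 FPKM, followed by Itgax at 4.67 ± 1.97, Wdfy4 at 3.06 ± 0.19, Batf3 at 1.56 ± 0.29, Xcr1 at 1.08 ± 0.47, Zbtb46 at 1.04 ± 0.06, Flt3 at 0.580 ± 0.089 and Clec9a at 0.380 ± 0.042 FPKM (SD, n = 3). Neighbors whose ranges overlapped there were Xcl1 and Itgax, Itgax and Wdfy4, Batf3 and Xcr1, and Xcr1 and Zbtb46. In vehicle tumors Itgax led at 2.31 ± 0.60 FPKM and above the rest, with Wdfy4 at 0.890 ± 0.303, Zbtb46 at 0.771 ± 0.204 and Xcl1 at 0.533 ± 0.156 next, each overlapping its neighbor. Below them lay Batf3 at 0.214 ± 0.102, Flt3 at 0.122 ± 0.065, Xcr1 at 0.0897 ± 0.0664 and Clec9a at 0.0375 ± 0.0349 FPKM, each overlapping its neighbor in that order.

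Tumors of 1 group also differed among themselves. Vehicle 1 had the highest vehicle level of 7 of the 8 genes, all but Batf3, with Xcr1 0.93 and Flt3 0.69 above the vehicle mean on the log2 CPM scale. In TP-18 tumors Wdfy4 stayed within 0.08 of its group mean, while Xcr1 ran from -0.71 in TP-18 2 to 0.61 in TP-18 1 and Itgax from -0.68 in TP-18 1 to 0.63 in TP-18 2. Vehicle 3 had the most neutrophil RNA, with 325 CPM summed over 7 markers, against 58.1 to 84.7 CPM in TP-18 tumors and 32.1 and 55.2 CPM in the other vehicle tumors.

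**Figure D3:**
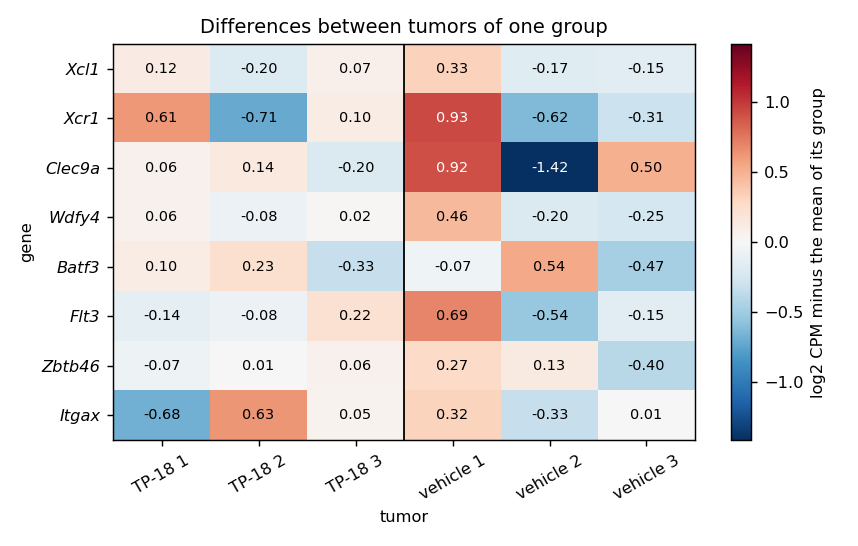
Log2 CPM of each gene (rows) in each tumor (columns) minus the mean of its own group, TP-18 tumors left of the line and vehicle tumors right of it. Xcr1 and Itgax run in opposite order over the TP-18 tumors, and vehicle 1 is above its group mean for all genes but Batf3.

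Further genes of cDC1 outside the 8 rose in part. Of 19 tested, 9 rose and 0 fell, with a median log2 change of 1.19, and 4 rose without TP-18 3 and 5 without vehicle 2. Irf8, the factor that specifies cDC1 and is also present in monocytes and B cells, averaged 90.8 ± 15.9 CPM in TP-18 tumors and 38.0 ± 3.2 CPM in vehicle tumors (log2 change 1.26 ± 0.13, adjusted p = 0.00259). Tlr3, the sensor of double-stranded RNA, rose by 1.19 ± 0.13, Tlr11, a sensor of microbial profilin in mouse cDC1, by 2.82 ± 0.42, and Gcsam by 2.52 ± 0.38 on the log2 scale. Tlr11 and Gcsam were scarce, at 1.71 ± 0.41 and 1.79 ± 0.41 CPM in TP-18 tumors and 0.240 ± 0.091 and 0.308 ± 0.079 CPM in vehicle tumors. Those 4 calls held with any 1 library left out. Cadm1, an adhesion molecule of cDC1 and of many other cells, averaged 128 ± 1.5 CPM in TP-18 tumors and 108 ± 0.9 CPM in vehicle tumors. Its adjusted p of 0.0418 was lost without TP-18 1 (0.143), TP-18 2 (0.105), TP-18 3 (0.137), vehicle 2 (0.119) or vehicle 3 (0.0748). Id2, which cDC1 require but lymphocytes use too, averaged 102 ± 18.4 CPM in TP-18 tumors and 69.2 ± 17.9 CPM in vehicle tumors (adjusted p = 0.128, and 0.0262 without vehicle 3). Ly75, Rab7b, Bcl6, Nfil3, Cxxc5 and Snx22 were among the 10 that did not pass. Xcr1 had a larger fitted change than all 19.

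Other dendritic cell lists were mixed. Among 12 tested genes of type 2 conventional dendritic cells 3 rose and 0 fell, with a median log2 change of 0.19, but 1 rose with TP-18 1, TP-18 2, TP-18 3 or vehicle 2 left out. Sirpa, a signal receptor they share with macrophages, averaged 178 ± 33.9 CPM in TP-18 tumors and 85.1 ± 13.6 CPM in vehicle tumors (adjusted p = 0.0109). Irf4 rose by 2.11 ± 0.52, a call lost without TP-18 1 (0.0660), TP-18 2 (0.105), TP-18 3 (0.0947), vehicle 1 (0.0640) or vehicle 2 (0.118). Cd209a, a lectin of type 2 cells derived from monocytes or their precursors, had 13, 22 and 29 counts in TP-18 tumors and 10, 13 and 26 in vehicle tumors (adjusted p = 0.840). Of 15 genes shared by conventional dendritic cells, 5 rose and 0 fell, with a median of 2.24. That count was 2 without TP-18 1, TP-18 2 or TP-18 3, 3 without vehicle 2 and 10 without vehicle 1. Btla, an inhibitory receptor of cDC1 and lymphocytes, rose by 2.74 ± 0.28. Ciita, the class II transactivator, rose by 3.36 ± 0.52 and lost its call without TP-18 1 (0.0546), TP-18 2 (0.0569) or TP-18 3 (0.0632). The same list holds the class II genes H2-Aa, H2-Ab1, H2-Eb1 and Cd74, with log2 changes of 2.24 to 2.67. Of these only H2-Eb1 passed (adjusted p = 0.0446), a call kept only when vehicle 1 was left out. Macrophages and B cells also express class II genes.

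Plasmacytoid dendritic cell genes had 6 of 11 tested members higher and 1 lower, with a median log2 change of 1.69. No fit with a library left out reached 6: higher calls were 3 without TP-18 1 or TP-18 2, 1 without TP-18 3, 2 without vehicle 2 and 5 without vehicle 1 or vehicle 3. The lower call was lost without TP-18 1, TP-18 2, vehicle 2 or vehicle 3. Siglech, a lectin that defines these cells in mice, had 65, 184 and 153 counts in TP-18 tumors and 13, 22 and 6 in vehicle tumors, at an adjusted p of 0.0155, or 0.0571 when TP-18 3 was left out. Tcf4, their lineage factor and a gene of many other cells, did not pass, at 143 ± 1.9 CPM in TP-18 tumors and 152 ± 14.8 CPM in vehicle tumors. Mature migratory dendritic cell genes had 5 of 14 tested members higher and 0 lower, with a median of 0.97, or 3 higher without TP-18 2, TP-18 3 or vehicle 3 and 2 without vehicle 2. Ccr7, which guides such cells to lymph nodes, averaged 5.65 ± 2.13 CPM in TP-18 tumors and 2.40 ± 0.49 CPM in vehicle tumors, and missed the threshold at an adjusted p of 0.0511, or 0.0263 when TP-18 1 was left out.

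**Figure D4:**
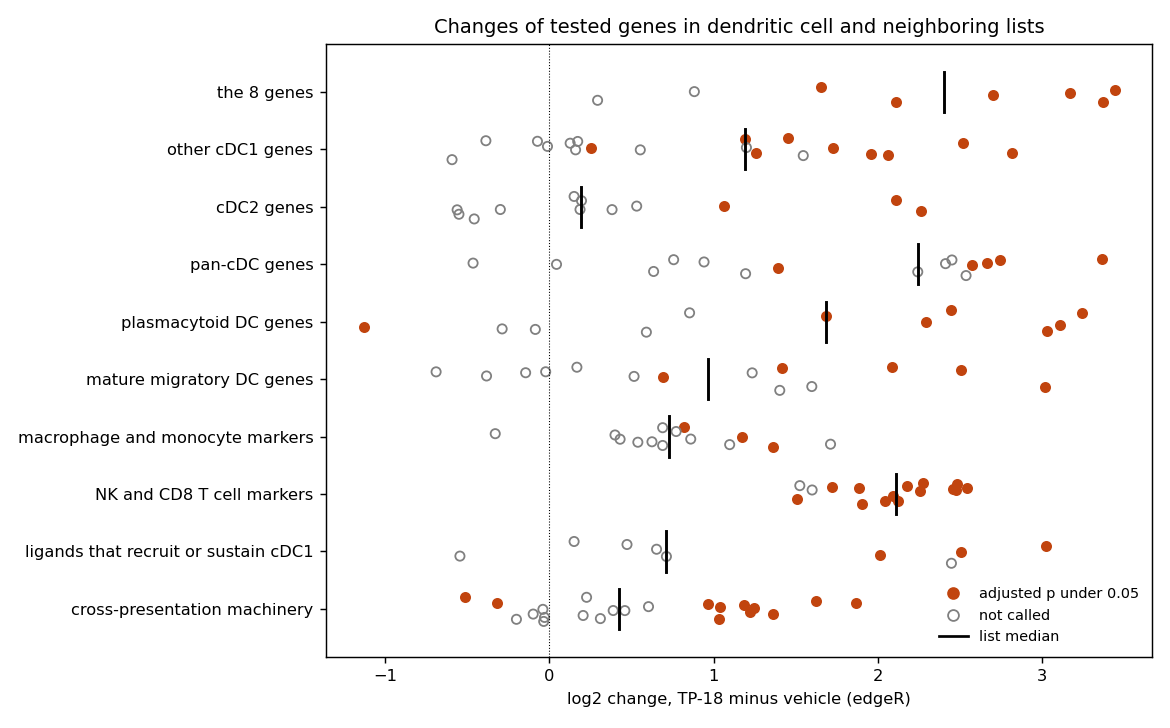
Log2 change of each tested gene (TP-18 minus vehicle, horizontal axis) for the 8 genes and 9 other lists, with filled points for an adjusted p under 0.05 in either direction, open points for the rest and a bar at each list median. The median is 2.40 for the 8 genes, 1.19 for other cDC1 genes and 0.19 for type 2 genes. It is 2.24 for genes shared by conventional dendritic cells, 2.11 for NK and CD8 T cell markers and 1.69 for plasmacytoid genes.

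Macrophages can carry Itgax, and of 14 tested macrophage and monocyte markers 3 rose and 0 fell, with a median log2 change of 0.73 and summed levels of 3148 to 4523 CPM in TP-18 tumors and 1698 to 2794 CPM in vehicle tumors. With vehicle 1 left out 6 rose, with TP-18 2 or TP-18 3 left out 1 and with either of the other vehicle tumors or TP-18 1 left out 2. Adgre1 averaged 84.5 ± 6.4 CPM in TP-18 tumors and 32.8 ± 5.4 CPM in vehicle tumors (adjusted p = 0.00182). Of 4 tested Langerhans cell markers, relevant to a tumor under the skin, 0 rose and 1 fell (a call that held only when vehicle 1 was the one left out), and Cd207, which encodes their defining lectin langerin, had 10 to 11 counts in TP-18 tumors and 0 to 22 in vehicle tumors. Of 12 tested skeletal muscle genes 7 rose, or 3 without TP-18 1, TP-18 3 or vehicle 2, with summed levels of 68.8 to 138 CPM in TP-18 tumors and 11.9 to 37.3 CPM in vehicle tumors. Of 5 tested red blood cell genes 4 fell, but 0 without TP-18 1, TP-18 2, TP-18 3 or vehicle 2, at 14.8 to 33.9 CPM in TP-18 tumors and 66.5 to 395 CPM in vehicle tumors. The part of these cell types and tissues in the changes of the 8 genes was not tested.

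Ligands that recruit or sustain cDC1 had 3 of 9 tested members higher and 0 lower, with a median log2 change of 0.71 and 2 to 4 higher with 1 library left out. Cxcl9, a chemokine of CXCR3 that cDC1 themselves make, averaged 204 ± 38.2 CPM in TP-18 tumors and 25.0 ± 8.8 CPM in vehicle tumors, and Cxcl10 rose by 2.01 ± 0.13 on the log2 scale. Ccl5, which attracts cDC1 beside XCL1, rose by 2.51 ± 0.47 and lost its call without TP-18 1 (0.0548), vehicle 2 (0.0952) or vehicle 3 (0.0597). Ccl3, Ccl4, Csf2, Il15 and Tnfsf11 did not pass. Of 7 tested receptors for such signals 3 rose and 0 fell, with a median of 0.78, but 0 rose without TP-18 3 and 1 without TP-18 2. Cxcr3, the receptor of CXCL9 and CXCL10, was among them with an adjusted p of 0.0166, or 0.0670 when TP-18 3 was left out.

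Cross-presentation machinery had 9 of 22 tested members higher and 2 lower, with a median log2 change of 0.43. The 9 were Psmb8, Psmb9, Tap1, Tap2, Rac2, Rab27a, Unc93b1, Cybb and Ifi30, and 11 members did not pass. Genes of this list are not particular to cDC1, and which cells expressed them was not tested. The higher calls ran from 7 to 10 with 1 library left out, but the lower ones, Sec61a1 and Rab34, were lost in every such fit except Rab34 without vehicle 1. Psmb8, an immunoproteasome subunit, rose by 1.36 ± 0.11, Tap2, a peptide transporter subunit, by 1.04 ± 0.12 and Rac2, a small GTPase of the phagosomal oxidase, by 1.22 ± 0.14 on the log2 scale. Rab27a, which delivers that oxidase to phagosomes, averaged 8.87 ± 1.07 CPM in TP-18 tumors and 2.88 ± 0.47 CPM in vehicle tumors (adjusted p = 0.00444). Sec22b, a SNARE tied to phagosomal traffic, averaged 50.1 ± 1.6 CPM in TP-18 tumors and 57.6 ± 2.5 CPM in vehicle tumors (adjusted p = 0.117), and Rab43, a GTPase of mouse cDC1 cross-presentation, 107 ± 6.3 CPM and 92.7 ± 6.8 CPM in the same order of groups (adjusted p = 0.148). Genes listed as effector signals of cDC1 had 6 of 8 tested members higher and 0 lower, with a median of 2.05. Of these 6, Cxcl9 and Cxcl10 were also in the list of ligands, and Il12b and Cd40 in that of mature migratory genes. Which cells of the tumor made them was not tested. Il12b, the interleukin-12 subunit shared with interleukin-23, had 64, 52 and 70 counts in TP-18 tumors and 6, 9 and 5 in vehicle tumors (log2 change 3.02 ± 0.39, adjusted p = 0.00488), whereas Il12a, the other subunit, was too scarce to test at 1 to 4 and 0 to 2 counts. Cd40, through which T cells license dendritic cells, rose by 2.08 ± 0.24.

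Profiles across the 6 tumors were also ranked for likeness over 11929 protein-coding genes, by Pearson's r of log2 CPM, as a description in which group, library and depth are shared by all points. Closest to Xcl1 were Fasl (r = 0.998), a death ligand of cytotoxic lymphocytes, Ctse (0.997), Rasgrp1 (0.996), an activator of RAS in T cells, Klra3 (0.996), an NK cell receptor, and Cadm1 (0.996). Closest to Xcr1 were Ccpg1 (0.997), Cenpj (0.995), E2f2 (0.994), Amigo1 (0.994) and Arhgdib (0.994). Many genes came near these values, with 390 at or above 0.95 for Xcl1 and 242 for Xcr1. The r does not measure the size of a change, which was 10.9-fold for Xcr1 by the fit. Ccpg1, Amigo1 and Arhgdib did not pass the test, with fitted changes of 1.16-fold, 1.49-fold and 1.11-fold. Cenpj rose 2.23-fold, E2f2 1.89-fold and Cadm1 1.19-fold. With group means removed, the mean of the 7 dendritic cell genes ran closest to C1qc (0.999), Slc25a20 (0.997), Cggbp1 (0.997), Gpr65 (0.996) and C1qa (0.995). Of these, C1qc and C1qa encode complement chains of macrophages. By this measure 155 genes were at or above 0.95. Vehicle 1 stood out here too, with C1qc at 263 CPM against 146 and 164 CPM in the other vehicle tumors.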

How the data were processed

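Total RNA of 6 CT26 tumors was sequenced, and the submitters' processing notes name fastp, HISAT2 and HTSeq with build GRCm38, without versions. How reads of either strand or of several places were counted is not stated. Raw counts per gene were deposited by the authors as whole numbers, not normalized. The authors' FPKM values divide back to 1 whole-number length per gene (within 0.01 bases) in 23122 of 23122 genes. Build GRCm38 is of another mouse strain, so reads of MHC and Klra genes may be placed less completely. The FPKM table served for levels between genes and as an alternative.

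Counts were tested in R 4.3.3 with edgeR 4.0.16: filterByExpr by group (minimum count 10, minimum total 15), TMM scaling, group as sole term, robust quasi-likelihood F test, two-sided, Benjamini-Hochberg adjusted p under 0.05 over 14189 genes. SE values come from the F statistic. Ratios were log2 of counts plus 0.5, with exact permutation tests over tumors. Log2 CPM used a prior count of 2. The alternatives were limma 3.58.1, DESeq2 1.42.0, other scalings and filters, a replicate block and leaving out each library. The fit was tested on simulated data. Coordinates are from GENCODE vM21, promoters from RefSeq.

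The 8 genes and 17 further lists (10 of 192 genes in more than 1) were chosen with earlier results of these data known. Of 201 list symbols 198 matched by symbol, 2 by synonym and 1 not at all. Named genes were the 8, up to 4 of each list by smallest p, lineage-defining genes, and the 5 most similar profiles; Tcf4, Cd207, Rab43, Sec22b, Il12a, Ms4a1, Krt8, Epcam, Cldn4, Krt18, Cdh1, Vim and other genes outside that rule, including those only listed as not passing, were chosen after their values were seen. Some members of the lists are not reported here.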

Additional observations from a re-analysis of the deposited data

How the results depend on the processing

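Of the 8 genes, between 4 and 7 were called higher and 0 lower in every alternative: 4 to 6 with 1 library left out, 5 with a CPM of at least 1 in 3 samples (Batf3 not tested), 5 on log2(FPKM + 1) without a filter, where Xcr1 had an adjusted p of 0.0563, and 7 with DESeq2, which added Itgax (0.0222). Each kept its direction in every fit. Counts over all genes, 1006 higher and 747 lower, ran from 388 to 1216 and from 111 to 1023 with 1 library left out. At an adjusted p under 0.10 they were 1609 and 1413, and with at least a 2-fold change 636 and 57. Lower calls were 1235 by DESeq2, 207 on log2(FPKM + 1), 219 on log2(FPKM + 0.1) and 95 on log2(FPKM + 1) without a filter. The cause was not tested. None of the 10 ratios passed, and none could, since the smallest exact permutation p with 3 tumors against 3 is 0.10. The smallest adjusted p of these tests was 0.25, and 2 of the ratios changed sign. Clec9a to Xcr1 was -0.043 with a pseudocount of 1, -0.061 on FPKM and -0.614 to 0.945 with 1 library left out. Xcl1 to Xcr1 ran from -0.502 to 0.075 with 1 library left out. Calls in the further lists ranged over all fits from 4 to 12 for other cDC1 genes, 0 to 4 for type 2 genes, 2 to 10 for genes shared by conventional dendritic cells and 9 to 16 for NK and CD8 T cell markers.

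The labels do not pair tumors by number, and deviations of same-numbered tumors correlated at 0.24, -0.08 and -0.04. With the replicate block, 5 of the 8 genes were called (Clec9a at 0.0682), and 547 genes higher and 231 lower overall. Low counts limit Clec9a, Batf3 and Xcl1, whose vehicle libraries held at most 13 reads each. They limit Xcr1 too, with 26, 7 and 9 reads in vehicle 1, vehicle 2 and vehicle 3.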
